A study of Homo sapiens with 5 samples.

Results

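The genes of the EGF receptor and its ligands were examined for binding of TEAD4, a transcription factor of the TEA domain family, in LX-2 cells. They were 10 genes taken as a list, out of 20007 protein-coding genes: the receptors EGFR, ERBB2 and ERBB3, the ligands of EGFR named AREG, EREG, BTC, HBEGF, TGFA and EGF, and the neuregulin NRG1. A TEAD4 peak was given to a gene when its summit lay inside the gene body or within 50 kb of any annotated transcription start site (TSS) of that gene in GENCODE release 44 on the human genome build hg38. By this rule 40 of the 21113 TEAD4 peaks belonged to these genes. The rule itself uses no signal value, but the list was drawn up with earlier results of these data known.

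LX-2 is an established human hepatic stellate cell line, grown here with 5% serum and treated with the solvent DMSO alone, and serves as a culture model of the myofibroblast derived from this cell. Chromatin was fixed for 10 min with 1% formaldehyde, and 3 replicates of the TEAD4 immunoprecipitation (ChIP-seq) were sequenced with reads of 50 bases. There were 2 input samples, 1 shared by replicates 1 and 2 and 1 for replicate 3. The authors kept replicates 1 and 3 and deposited 1 list of peaks for both together. The paper states that only these 2 were concordant enough, so replicate 2 was left out. Every value below therefore comes from 1 cell line, 1 condition and 1 joint list. As values of single replicates are not in this list, peaks are given without a spread between replicates, no difference was tested against one, and the depth of the samples is unknown. Gene expression was not part of these data. The cell type could only be looked at through peaks: 7 of 9 marker genes of stellate cells or myofibroblasts had a peak by the rule above (not LUM and TIMP1), as had 1 of 6 hepatocyte markers (SERPINA1), 2 of 3 endothelial, 2 of 3 immune and 3 of 3 epithelial markers. Of all protein-coding genes 56.2% had a peak by this rule, so these small counts do not identify the cell type.

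EGFR, ERBB2 and ERBB3 are receptor tyrosine kinases of the cell surface that pair with each other when a ligand binds and then signal through the RAS-MAPK and PI3K-AKT cascades. Their ligands are made as membrane-bound precursors, from which proteases cut the active growth factor. In the injured liver, signals through EGFR act on hepatocytes and on stellate cells. TEAD4 binds DNA and recruits the co-activator YAP1, often at enhancers that also carry sites of AP-1 (JUN and FOS proteins).

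The sequences around the summits of 7 peaks are shown because 6 of them hold an exact motif match at EGFR or its ligands, and the other is that of the strongest peak of all members. Each runs for 100 bases to either side of the summit and is read from the plus strand of hg38, and capitals mark the motif. The TEAD motif searched was ACATTCC, which reads GGAATGT on the other strand, and the AP-1 motif was TGACTCA, which reads TGAGTCA on the other strand. Both strands were searched, and matches of the 2 motifs were counted separately. A match describes the letters and does not show which protein was bound. The first 3 sequences carry the TEAD motif. They lie in the first intron of EGFR (chr7:55052185-55052385, signal value 43.7), beyond the 3′ end of EGFR (chr7:55245325-55245525, signal value 140.3) and downstream of HBEGF (chr5:140322857-140323057, signal value 140.0).
EGFR intron with TEAD motif: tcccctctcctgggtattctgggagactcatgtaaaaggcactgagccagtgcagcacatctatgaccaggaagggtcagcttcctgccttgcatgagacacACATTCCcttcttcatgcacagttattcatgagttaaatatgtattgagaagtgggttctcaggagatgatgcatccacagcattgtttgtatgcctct
EGFR downstream with TEAD motif: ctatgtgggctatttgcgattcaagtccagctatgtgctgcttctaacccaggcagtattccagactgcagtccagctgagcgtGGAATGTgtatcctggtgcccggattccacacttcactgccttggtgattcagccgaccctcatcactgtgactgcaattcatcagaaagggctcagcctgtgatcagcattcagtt
HBEGF downstream with TEAD motif: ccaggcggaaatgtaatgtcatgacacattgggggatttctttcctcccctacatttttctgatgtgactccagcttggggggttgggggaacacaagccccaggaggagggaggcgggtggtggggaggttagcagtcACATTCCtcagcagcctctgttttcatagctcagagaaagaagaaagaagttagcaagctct

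The next 3 sequences carry the AP-1 motif and lie in the first intron of EGFR (chr7:55065125-55065325, signal value 129.4), downstream of HBEGF (chr5:140317950-140318150, signal value 57.3) and in the first intron of TGFA (chr2:70524390-70524590, signal value 168.7). The last is the peak downstream of AREG (chr4:74473238-74473438, signal value 440.5), which has neither motif in this window and is printed in lower case throughout.
EGFR intron with AP-1 motif: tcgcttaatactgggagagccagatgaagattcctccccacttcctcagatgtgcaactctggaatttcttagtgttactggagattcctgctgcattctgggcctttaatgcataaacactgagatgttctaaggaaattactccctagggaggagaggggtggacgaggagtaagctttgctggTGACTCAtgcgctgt
HBEGF downstream with AP-1 motif: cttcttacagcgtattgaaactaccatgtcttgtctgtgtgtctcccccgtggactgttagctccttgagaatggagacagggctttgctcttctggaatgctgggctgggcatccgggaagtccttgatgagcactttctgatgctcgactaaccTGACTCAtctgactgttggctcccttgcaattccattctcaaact
TGFA intron with AP-1 motif: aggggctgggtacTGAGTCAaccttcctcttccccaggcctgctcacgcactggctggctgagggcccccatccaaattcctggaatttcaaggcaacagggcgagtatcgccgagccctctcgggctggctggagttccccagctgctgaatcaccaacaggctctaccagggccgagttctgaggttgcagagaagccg
AREG downstream without either motif: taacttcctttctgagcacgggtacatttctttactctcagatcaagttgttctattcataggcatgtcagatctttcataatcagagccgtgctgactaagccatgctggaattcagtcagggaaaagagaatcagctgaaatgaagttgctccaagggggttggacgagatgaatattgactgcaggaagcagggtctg

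Measured from its centre, the TEAD motif lay 5 bases from the summit in the intron of EGFR and 13 bases from it in the peak beyond the 3′ end. It was farther out at HBEGF (42 bases). The 3 AP-1 motifs shown lay 59 bases from the summit at HBEGF, 84 at TGFA and 89 at EGFR. These 3 were thus nearer to the edge of the searched window than to the summit. Matches not shown did not all follow this order. The 9 AP-1 motifs of NRG1 lay 13 to 72 bases from the summit and its 4 TEAD motifs 7 to 36 bases. The TEAD motif of ERBB3 lay 72 bases from it.

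Of the 10 genes, 9 had at least 1 TEAD4 peak, while 56.2% of all protein-coding genes had one by the same rule. BTC had none. The median searched window was 132.4 kb for the 10 genes and 112.4 kb for all protein-coding genes, and these shares were not adjusted for it. The 40 peaks were spread unevenly. NRG1 had 24 peaks, EGFR 5, HBEGF 4 and ERBB3 2, and ERBB2, AREG, EREG, TGFA and EGF had 1 each. The median over the 10 genes was 1 peak, the same as the median of all protein-coding genes. No peak was shared between members. Long genes were searched over more sequence, so the count was also divided by the length of the searched window. HBEGF then led with 3.59 peaks per 100 kb, followed by NRG1 (1.90), EGFR (1.78) and ERBB3 (1.63). The single peaks of AREG, EREG, ERBB2, TGFA and EGF gave 0.966, 0.853, 0.712, 0.531 and 0.522 peaks per 100 kb. The median of the 10 genes was 0.909 and that of all protein-coding genes 0.667, and TGFA, EGF and BTC lay under the latter.

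**Figure D1:**
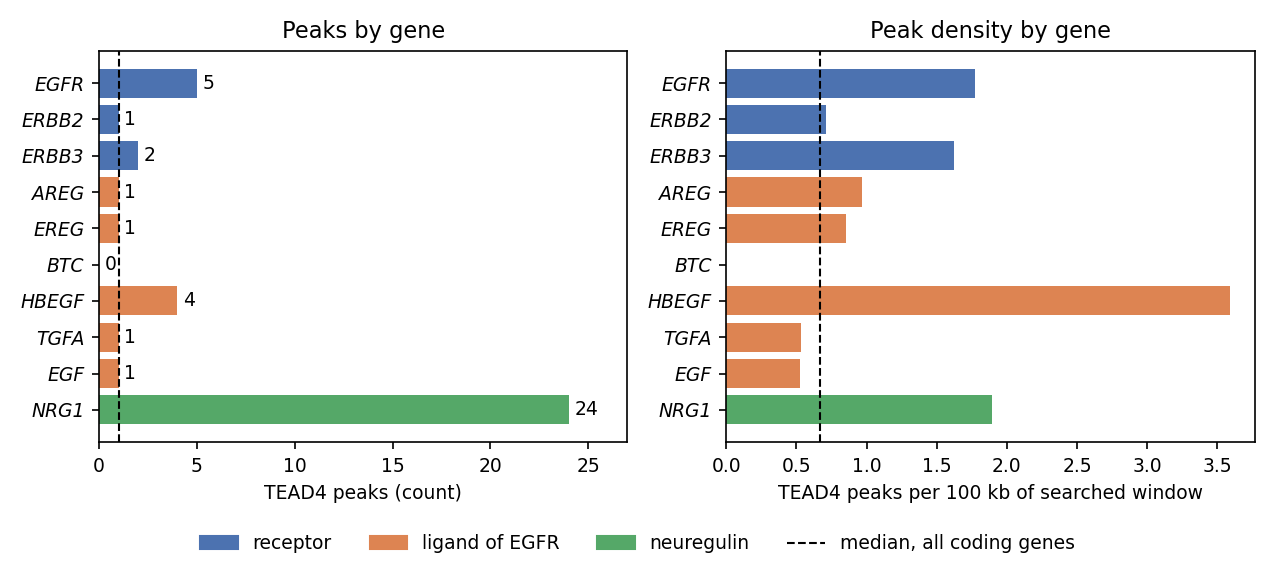
TEAD4 peaks by gene (left, count) and per 100 kb of searched window (right), with bars coloured by role and a dashed line at the median of all protein-coding genes (1 peak and 0.667 peaks per 100 kb). NRG1 has the highest count (24) and HBEGF the highest density (3.59) of the 10 genes, and BTC has no peak.

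The signal value was read as the enrichment figure that the peak caller gave to each peak. It ran from 31.6 to 440.5 over the 40 peaks with a median of 75.8, and from 6.57 to 1074 over the whole list with a median of 68.1. Of the members' peaks, 22 (55%, Wilson 95% interval 39.8 to 69.3%) lay above the median of the list. Intervals on shares cover counting error only, and peaks of 1 gene are not independent of each other. NRG1 weighed on these figures: its 24 peaks had a median of 66.3, and the 16 peaks of the other members a median of 134.2. Peaks at the highest reproducibility score of 1000 made up 33 of the 40 (82.5%, interval 68.1 to 91.3%) and 76.1% of the whole list.

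All 3 receptors had peaks, 8 in all with a median signal value of 126.4. EGFR (chr7:55019017-55211628, plus strand) encodes the receptor shared by EGF, TGFA, AREG, HBEGF and the other EGFR ligands. Its 5 peaks gave 1.78 peaks per 100 kb, higher than in 78.2% of protein-coding genes (ties counted by their middle rank). The first 4 lay in the first intron of the canonical transcript, at 33.3, 44.9, 46.2 and 114.0 kb from its TSS, with signal values of 43.7, 123.5, 129.4 and 179.7. The last of them (chr7:55132841-55133131) was both the strongest EGFR peak and the nearest to any EGFR TSS, 23.2 kb from a TSS inside the gene. It had neither motif. The fifth EGFR peak (chr7:55245328-55245563, signal value 140.3) lay 33.8 kb past the 3′ end of the canonical transcript, inside the long non-coding RNA gene ELDR and in an exon of a processed pseudogene. It was counted for EGFR through the TSS of a transcript with a retained intron, 44.9 kb away. The weakest EGFR peak, with a reproducibility score of 862, was the one that carried a TEAD motif 5 bases from its summit.

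ERBB2 (chr17:39687914-39730426, plus strand) encodes the receptor without a known ligand that serves as the partner of the others. Its single peak (chr17:39699831-39700062, signal value 147.7) was the only one of the 40 within 2.5 kb of a TSS of its own gene. The summit lay 0.118 kb upstream of the canonical TSS and 0.030 kb from another coding TSS. By this distance 1 of the 10 members was reached, against 16.7% of all protein-coding genes. Neither motif lay near its summit. The next peak beyond the searched window was 199.8 kb from any ERBB2 TSS and had a signal value of 40.4.

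ERBB3 (chr12:56076799-56103505, plus strand) encodes the receptor with little kinase activity of its own that binds neuregulins. Both of its peaks were under the median of the list. The first (chr12:56071621-56072064, signal value 63.8) lay 8.32 kb upstream of the canonical TSS and 4.96 kb from the nearest ERBB3 TSS. The second (chr12:56126199-56126642, signal value 31.6) was the weakest of the 40 peaks and lay in an exon of ZC3H10, 1.85 kb from a TSS of ESYT1 and 26.6 kb from the nearest ERBB3 TSS.

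Of the 6 EGFR ligands, 5 had a peak, 8 in all with a median signal value of 139.5. None had a peak within 2.5 kb of a TSS of its own, beside 16.7% of all protein-coding genes. AREG, EREG and BTC are neighbours on chromosome 4 and had 1, 1 and 0 peaks. AREG (chr4:74445136-74455005, plus strand) encodes amphiregulin, a growth factor known from other cells as a target of YAP1. Its peak (chr4:74473147-74473519) had the highest signal value of the 40, 440.5, which ranked 215 among the 21113 peaks of the list. It lay 18.3 kb past the 3′ end of the canonical transcript, 28.2 kb from its TSS and 24.7 kb from the nearest AREG TSS, and no coding gene had a nearer TSS. Among protein-coding genes with a peak, the strongest peak of AREG ranked above that of 97.3%.

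EREG (chr4:74365145-74388749, plus strand) encodes epiregulin, which also binds ERBB4. Its peak (chr4:74394693-74395136) had a signal value of 49.4 and lay 6.17 kb past the 3′ end of the gene. This peak lay between EREG and AREG, 12.5 kb from the nearest TSS of EREG and 50.2 kb from that of AREG, just outside the distance counted for AREG. BTC (chr4:74744759-74794523, minus strand) encodes betacellulin. The peak nearest to it (chr4:74682783-74683001, signal value 118.3) was 87.3 kb from its nearest TSS. EPGN, which encodes the related ligand epigen and lies next to EREG, had 3 peaks with a highest signal value of 62.3. In this run of 4 ligand genes the AREG peak thus had a higher signal value than any other peak given to them.

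HBEGF (chr5:140332843-140346603, minus strand) encodes heparin-binding EGF-like growth factor. Its 4 peaks had signal values of 140.0, 57.3, 52.5 and 165.1 in order of distance, and lay 9.89, 14.8, 34.4 and 37.2 kb past the 3′ end of the canonical transcript. They were 12.2, 17.1, 36.7 and 39.5 kb from the nearest HBEGF TSS. All 4 were thus on the same side of the gene, and its density was higher than that of 94.9% of protein-coding genes. The nearest coding TSS belonged to HBEGF only for the first of them (chr5:140322810-140323069). For the other 3 it belonged to PFDN1, which encodes a subunit of the prefoldin chaperone, at 14.9, 2.17 and 2.39 kb, and the farthest 2 lay inside PFDN1. HBEGF thus kept 1 peak when peaks were given only to the gene with the nearest coding TSS, and 2 within 25 kb.

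TGFA (chr2:70447284-70554193, minus strand) encodes transforming growth factor alpha. Its single peak (chr2:70524344-70524607, signal value 168.7) lay in the first intron, 29.3 kb from the canonical TSS. EGF (chr4:109912883-110013766, plus strand) encodes the ligand after which the family is named. The EGF peak (chr4:110020195-110020424, signal value 139.1) lay 6.55 kb past the 3′ end of the gene and 107.4 kb from its canonical TSS. It was given to EGF through the TSS of a transcript with a retained intron, 15.8 kb away, and was lost when only canonical TSSs were used.

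**Figure D2:**
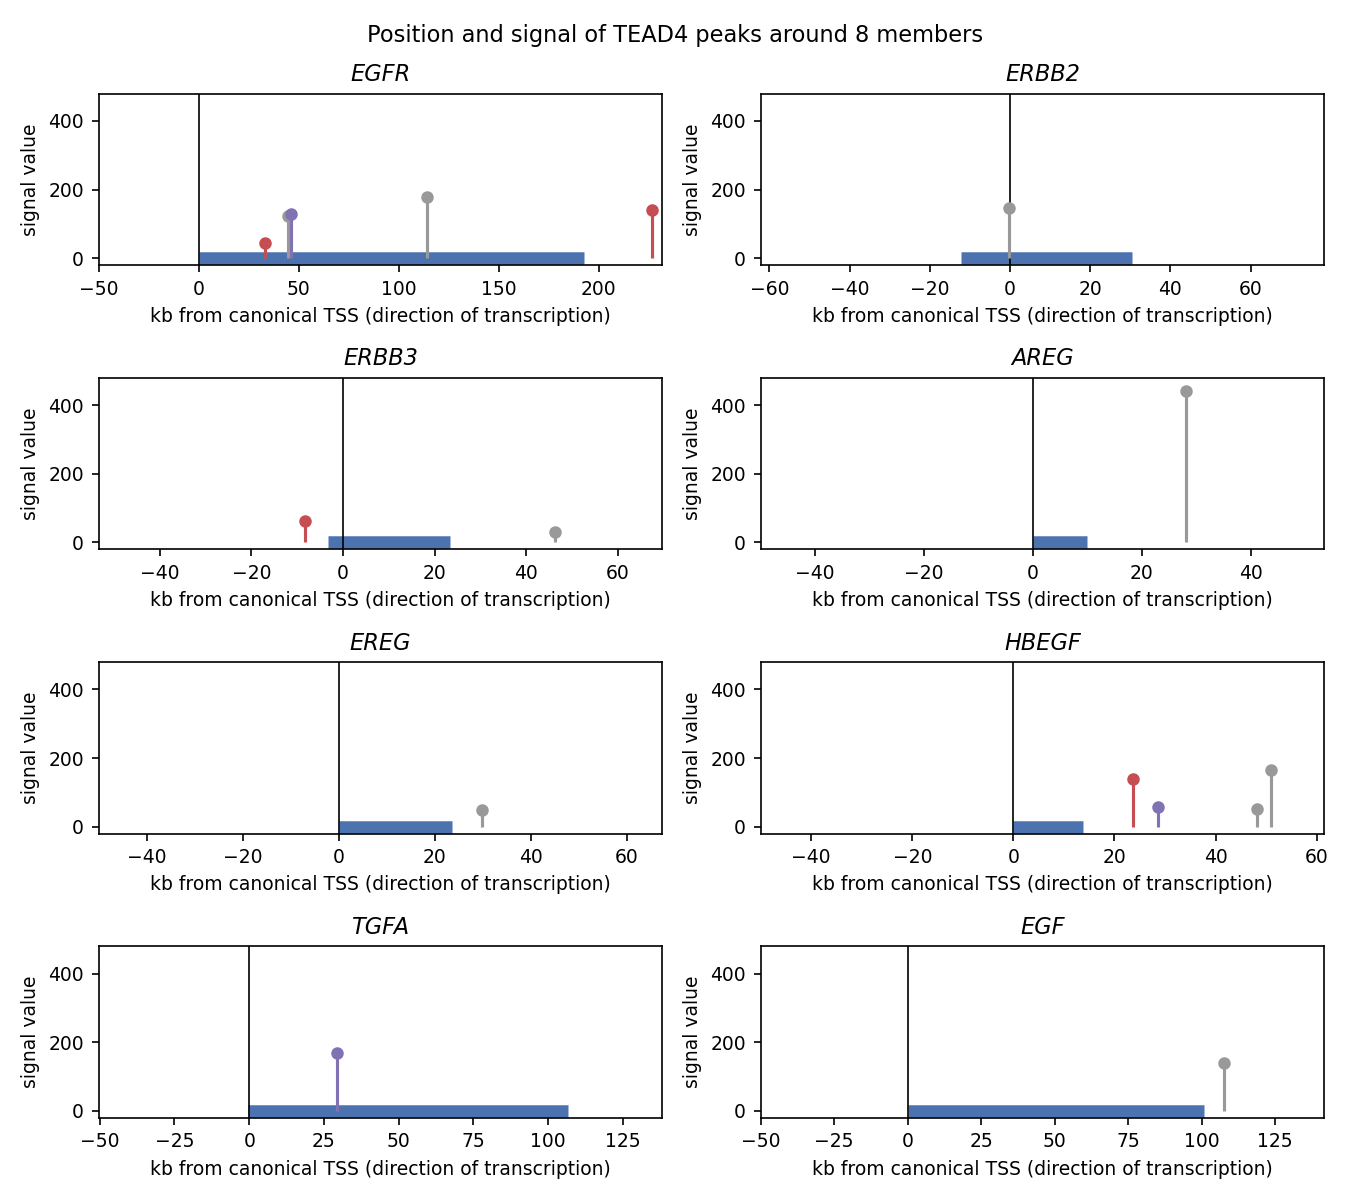
Position (kb from the canonical TSS in the direction of transcription, vertical line) and signal value of the peaks of 8 members, with the gene body as a blue bar and stems coloured by motif (red TEAD, purple AP-1, grey neither). The ERBB2 peak lies at the TSS, 4 EGFR peaks and the TGFA peak lie inside the gene, and the peaks of AREG, EREG, HBEGF and EGF lie past the 3′ end.

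NRG1 (chr8:31639222-32855666, plus strand) encodes neuregulin 1, a ligand of ERBB3 and ERBB4, and its transcripts start at several widely spaced promoters. All 24 of its peaks lay inside the gene body. The count was high among genes of its size: 86 protein-coding genes had a searched window over 1 Mb, their median was 2 peaks and 0.182 peaks per 100 kb, and 59 of them (68.6%) had a peak. Only 4 of the 86, NRG1 included, had 24 peaks or more, as did 10 of all protein-coding genes. NRG1 itself had 1.90 peaks per 100 kb, higher than in 80.5% of all protein-coding genes.

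The NRG1 peaks were not spread evenly over the gene. When peaks no more than 50 kb apart were joined, 15 of the 24 formed 1 run of 128.5 kb that lay 322.8 to 194.6 kb before the canonical TSS, and 7 formed another of 75.6 kb that lay 144.0 to 219.1 kb after it. The remaining 2 stood alone, 115.2 kb before and 29.9 kb after the canonical TSS, with signal values of 52.6 and 52.9. No peak lay in the first 586.0 kb of the gene, which includes the TSSs of the longest transcripts.

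In the upstream run the signal values ran from 32.7 to 221.6 with a median of 75.0, and in the downstream run from 33.0 to 116.7 with a median of 56.4. All 4 TEAD motifs at NRG1 were in the upstream run, which also held 5 of the 9 AP-1 motifs. The downstream run held the other 4 AP-1 motifs and no TEAD motif. The strongest NRG1 peak (chr8:32271303-32271642, signal value 221.6) had an AP-1 motif 72 bases from its summit and lay 50.4 kb from the nearest NRG1 TSS. The peak nearest to a TSS (chr8:32225249-32225692, signal value 78.4) lay 4.43 kb from the start of a transcript without a defined coding sequence. At the end of the downstream run, 2 peaks with signal values of 79.5 and 56.4 lay in exon 12 of the canonical transcript. One interval of the upstream run was listed with 2 summits, of signal values 157.5 and 32.7, and counts as 2 of the 24 peaks.

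Across the members most peaks were away from start sites. Only 1 of the 40 summits (2.5%, interval 0.443 to 12.9%) came within 2.5 kb of a start of its own gene. When the TSSs of any coding gene were counted, 4 summits did (10%, interval 3.96 to 23.1%), namely those at ERBB2, PFDN1 and ESYT1. The share over the whole list was 18.9%. The summit was inside the member's gene body for 30 of the 40 peaks, of which 24 belonged to NRG1. The nearest coding TSS was the member's own for 36 of 40 peaks, and the other 4 were the 3 HBEGF peaks near PFDN1 and the ERBB3 peak near ESYT1. Both counts partly follow from the rule, which takes peaks in the gene body or near its TSSs. They were not set beside a share over all genes. Of the promoters in the RefSeq table of GRCh38.p14, which run from 250 bases before to 50 after the start, 10 belonged to EGFR, ERBB2 and the 6 EGFR ligands. None of the 10 held the TEAD motif, which 3.46% of 35116 promoters held. None overlapped a TEAD4 peak either, but the share of all promoters that overlap a peak was not counted. This overlap count thus has no background, and promoters of ERBB3 and NRG1 are not in it. The AP-1 motif was found in 1 EGFR promoter and in that of EGF, and in 4.95% of all promoters. The ERBB2 entry is that of an upstream start and not of the one at the peak.

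Of the 40 peaks, 8 (20%, interval 10.5 to 34.8%) had the TEAD motif at 100 bp or less from the summit, beside 23.0% of the whole list. They were 2 peaks of EGFR, 1 each of ERBB3 and HBEGF and 4 of NRG1. The AP-1 motif was found in 12 peaks (30%, interval 18.1 to 45.4%), beside 25.4% of the whole list, namely 1 each of EGFR, HBEGF and TGFA and 9 of NRG1. The interval of each share includes the share of the whole list. Either motif was present in 20 of the 40 peaks (50%, interval 35.2 to 64.8%), and in 43.9% of the list. No peak had both (0 of 40, interval up to 8.76%), against 4.49% of the list. The AREG, ERBB2, EREG and EGF peaks, and the strongest peak of EGFR, were among the 20 with neither. With the shorter TEAD motif CATTCC the share rose to 42.5% of the members' peaks and 46.8% of the list.

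A further 44 genes of the pathway were examined by the same rule, and 34 of them (77.3%) had a peak, beside the 56.2% of all protein-coding genes. Longer windows have more room for a peak, and these shares were not adjusted for the length searched. Their median density was 0.968 peaks per 100 kb, close to the 0.909 of the 10 members. Among the remaining receptor and ligand genes, 3 of 5 had a peak: ERBB4, the other neuregulin receptor (highest signal value 145.3), EPGN and NRG3 (39.8). NRG2 and NRG4 had none. The median density of these 5 genes was 0.0861 peaks per 100 kb, beside 0.667 for all protein-coding genes. ERBB4 (0.165) and NRG3 (0.0861) were each searched over more than 1 Mb. All 4 genes of ligand shedding had a peak. The strongest were those of ADAM10, a protease that cuts EGF and betacellulin precursors (187.9), and RHBDF2, which carries ADAM17 to the surface (144.6, with PRCD as the nearest coding gene). ADAM17 itself, the main protease for AREG, HBEGF and TGFA, had 1 peak (64.4) at 2.57 kb from a TSS.

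Downstream of the receptors, 4 of 6 adaptor genes had a peak, led by GRB2 (287.4, nearest coding gene TMEM94), PLCG1 (216.4) and SOS2 (207.6), and SOS1 and GAB1 had none. In the RAS-MAPK cascade 8 of 10 genes had a peak. None had one within 2.5 kb of a TSS of its own, beside 16.7% of all protein-coding genes. HRAS had a peak of 136.0 with RASSF7 as the nearest coding gene, and BRAF and MAPK3 had none. In the PI3K-AKT branch 5 of 7 genes had a peak. PIK3CB, a catalytic subunit of PI3 kinase, had the strongest peak of all 54 genes examined (574.6, 10.8 kb from a TSS), and AKT1 and AKT2 had none.

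Genes of negative feedback, which dampen signals from the receptors, had a peak in 10 of 12 cases, 29 peaks in all and a median density of 1.87 peaks per 100 kb. SPRY1, an inhibitor of RAS signaling, had its strongest peak (300.03) 18.6 kb from a TSS. LRIG1, which promotes the breakdown of EGFR, had 6 peaks up to 269.0. DUSP4, a phosphatase of MAP kinases, had a peak of 164.5 at 0.048 kb from a TSS. SPRY2 and DUSP5 had none. Of the 44 genes, 9 had a peak within 2.5 kb of a TSS of their own, a share close to the 16.7% of all protein-coding genes. SPRY1, SPRED1, SPRED2 and DUSP4 were among the 9. The groups were small, and no difference between them was tested.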

How the data were processed

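TEAD4 ChIP-seq was performed in LX-2 cells (3 replicates, 2 inputs). Per the labels the build is hg38. The authors mapped reads with Chromap and applied the ENCODE IDR (irreproducible discovery rate) pipeline to replicates 1 and 3. Their deposited list has 10 columns. The deposited score was read as the scaled IDR (830 to 1000). The deposited signal value was read as the peak caller's enrichment per peak, and the deposited −log10 q-value is capped at 4.76. What each column holds was inferred from its place and its values, and the peak caller is not given in the sources used here. A score of 830 stands for an IDR of 0.01. Because the list joins replicates, a peak seen in 1 replicate only is not in it, and signal values are compared only within the list.

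All 21113 peaks lay inside the hg38 chromosomes. Genes and TSSs were from GENCODE release 44. Summit, window and motif searches ran in pandas 2.3.3, numpy 2.4.6 and scipy 1.17.1 under Python 3.11.15, and matplotlib 3.10.9 drew the figures. Checked on simulated data, 100 of 100 gene windows equalled a direct search and 500 of 500 planted motifs were found. Values were described beside all genes or all peaks, and no test was made.

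The members, gene lists, markers and alternatives were chosen with earlier results of these data known. Named were all members, with their strongest peak and the peak nearest a TSS, and in each pathway role the genes with the strongest peaks (at most 4). Other genes were named where their TSS was nearer to a described peak. ADAM17, NRG3 and genes listed without a peak or within 2.5 kb were named outside this rule, after their values were seen, as were the EGFR, HBEGF and NRG1 peaks described beyond those 2. Alternatives changed the distance, the TSSs, the peaks, and the motif and its window. No sequence of NRG1 is shown. Some items named by this rule are not reported here.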

Additional observations from a re-analysis of the deposited data

How the results depend on the processing

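The choice of distance mattered most. Within 10 kb, 5 of the 10 genes had a peak (34.0% of all genes), and 22 of the 44 other pathway genes did. The median density of the 10 genes was then 0.428 peaks per 100 kb, beside 0 for all genes. At 25 kb the median density was 1.43 (0 for all genes), with a peak at 9 genes (43.7% of all genes). At 100 kb all 10 had a peak (72% of all genes). With canonical TSSs only, 8 genes had a peak (53.2% of all genes). With only peaks above the median signal value, there were 22 peaks at 7 genes (38.8% of all genes), with a median signal value of 134. The shorter TEAD motif CATTCC raised the TEAD share to 42.5% (all peaks 46.8%). Within 50 bp of the summit the AP-1 share was 15% (all peaks 17.2%), and within 250 bp it was 45% (all peaks 33.2%), so its order against the whole list depended on the window. In all, 49 of 57 alternative values of these summaries stayed within 1.5 times the count or within the interval of the share, and 79 of 100 values of single genes did. No paired analysis was possible because both replicates used were joined in the list, which holds no value per replicate. For the same reason no replicate could be left out in turn. Depth is unknown, so the absence of a peak, as at BTC, says only that none passed the authors' threshold.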

Other observations

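Beyond the searched windows, the next peak lay 50.2 to 199.8 kb from the nearest TSS of each member. It was farthest at ERBB2 (199.8 kb) and NRG1 (126.7 kb). The strongest of these outside peaks lay 83.4 kb from an HBEGF TSS (signal value 214.8, nearest coding gene PFDN1), followed by one 87.2 kb from EGF (167.7, nearest coding gene ELOVL6) and one 58.1 kb from ERBB3 (121.6, nearest coding gene MYL6B).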
